A study of Mus musculus with 12 samples.

Results

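The genes described are 9 regulators of adipogenesis and genes of lipid storage, chosen by name from the 26305 gene identifiers of a count table: the transcription factors Pparg, Cebpa, Cebpb and Cebpd, the storage and uptake genes Lpl, Fabp4 and Plin2, the secreted factor Cfd and the receptor Lepr. Each was matched from its Entrez identifier to its mouse symbol, and 9 of 9 were found. RNA was sequenced from primary embryonic fibroblasts that had been isolated from wild-type male C57BL/6 embryos at E13.5 and kept in medium with 10% serum at 3% oxygen and 5% carbon dioxide. Cultures received the vehicle DMSO or 10 µM WM-2474, a compound that the labels call an inactive control. RNA was taken after 96 h or 240 h, which gave 4 groups (DMSO 96 h, DMSO 240 h, WM-2474 96 h and WM-2474 240 h) of 3 biological replicates and 12 libraries. The labels name no hormone cocktail for adipocyte differentiation in any group, nor do they say whether replicates came from separate embryos.

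Adipogenesis is the conversion of fibroblast-like precursors into fat-storing adipocytes. C/EBPβ and C/EBPδ, encoded by Cebpb and Cebpd, act early and raise the amounts of PPARγ and C/EBPα, which sustain each other and switch on the genes of the mature fat cell. Embryonic fibroblasts are a common starting cell for this conversion in culture, where it is usually started by added hormones.

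The part of the regulators' sequence that precedes transcription is shown because the cascade runs through it: C/EBP proteins are known to act on the downstream Pparg promoter, from which the fat-selective PPARγ2 form is made. RefSeq windows on GRCm38.p6 were present for 6 of the 9 genes, 9 windows in all, with 3 for Pparg and 2 for Lepr. The windows for Cebpd, Lpl and Fabp4 were not used here. The 250 bases before the start are printed for the 3 regulators' windows that hold no annotated exon, 5′ to 3′ on the + strand. Capitals mark matches, on either strand, to the 6 motifs searched: TATAAA for the TATA box, CCAAT for the box of that name, GGGCGG for the GC box, CACGTG for the E-box, TTGCNNAA for C/EBP factors and AGGTCA for nuclear receptors.
Pparg, downstream start, chr6:115421816-115422065: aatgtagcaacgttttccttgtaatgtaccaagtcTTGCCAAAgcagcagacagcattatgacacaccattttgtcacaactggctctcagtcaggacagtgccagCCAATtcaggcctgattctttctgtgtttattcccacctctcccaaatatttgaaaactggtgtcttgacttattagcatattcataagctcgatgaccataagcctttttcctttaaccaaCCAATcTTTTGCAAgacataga
Cebpa, chr7:35119043-35119292: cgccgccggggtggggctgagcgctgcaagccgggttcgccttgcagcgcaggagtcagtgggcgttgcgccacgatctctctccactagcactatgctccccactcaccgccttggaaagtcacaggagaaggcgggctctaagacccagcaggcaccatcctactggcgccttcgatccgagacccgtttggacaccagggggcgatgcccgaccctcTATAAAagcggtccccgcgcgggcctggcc
Cebpb, chr2:167688665-167688914: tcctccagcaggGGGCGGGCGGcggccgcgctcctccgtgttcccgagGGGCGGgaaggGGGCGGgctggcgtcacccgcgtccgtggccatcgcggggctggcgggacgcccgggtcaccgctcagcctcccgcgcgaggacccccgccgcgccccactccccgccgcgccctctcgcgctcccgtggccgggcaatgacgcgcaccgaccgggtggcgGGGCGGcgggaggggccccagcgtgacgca
The downstream Pparg window held 2 C/EBP matches, at 215 to 208 bases before the start on the same strand and at 16 to 9 bases before it on the opposite strand, and 2 CCAAT matches. C/EBP matches of this form occurred in 9.56% of the 32851 windows of the same length, and CCAAT in 33.8%. No C/EBP match was found in the other 8 windows. The Cebpa window held a TATA match at 30 to 25 bases before the start, a motif found in 12.4% of all windows. In the Cebpb window 5 GC box matches occurred, of which a pair overlap, against at least 1 in 32.7% of all windows. Its GC content was 81.6%, that of the Cebpa window 66.4% and that of the downstream Pparg window 40.8%, beside a median of 52.4% over all windows. AGGTCA, found in 14.0% of all windows, was matched in the upstream Pparg windows and the Plin2 window, which are not printed here. The E-box, found in 6.02% of all windows, was matched in no window of these genes. These matches are letters in a window and show no binding.

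Library totals ran from 7313007 to 26019167 counts, and 3 counts correspond to 0.12 to 0.425 CPM, the counts relative to the scaled library total. Of the fibroblast markers 10 of 10 were tested, and their summed level was 31394.7 to 52723.0 CPM over the 12 libraries. Their levels were unequal: group means were 12204.0 to 18477.1 CPM for Col1a1, 64.3 to 84.4 CPM for Dcn and 9.96 to 13.2 CPM for Lum. Of 13 adipocyte markers, Lep, Cidec and Retn were at 0 in all 12 libraries, and Adipoq did not exceed 0.176 CPM and Plin1 0.136 CPM. Summed adipocyte markers stood at 22.1 to 28.9 CPM at 96 h and 14.1 to 18.2 CPM at 240 h. Of the 4 that could be tested over time, Plin4 and Lipe fell under both treatments, Adrb3 rose in DMSO (log2 change 1.17, adjusted p = 0.000972) and did not pass in WM-2474 (adjusted p = 0.151), and Slc2a4 passed in neither. DMSO 240 h replicates 1 and 2 stood apart: they held the fewest counts and 13.9 and 17.8 CPM of summed B-lineage markers, against 0.651 to 3.82 CPM in the other 10 libraries. Except for the cell type markers, counts of called genes in DMSO are also given without these libraries where they move. The part of these libraries in the results was otherwise not tested.

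Levels between genes were compared per kilobase of exon (RPKM). In DMSO at 96 h the order was Cebpb (87.7 ± 11.5 RPKM, SD, n = 3), Plin2 (54.4 ± 0.666), Cebpd (38.1 ± 4.0), Lpl (10.9 ± 1.08), Cebpa (5.6 ± 0.745), Pparg (3.41 ± 0.434), Fabp4 (2.82 ± 0.262), Lepr (0.453 ± 0.0373) and Cfd at 0. The early factors thus stood above the median RPKM of all tested genes in that group, 9.38, and the terminal factors below it. Neighbours in this order did not overlap between libraries, although the lowest Pparg library (3.14 RPKM) was close to the highest Fabp4 library (3.11 RPKM). At 240 h in DMSO the mean of Pparg (2.34 ± 0.33 RPKM) stood above that of Cebpa (2.11 ± 0.283), with libraries that overlapped, and the same pair overlapped in WM-2474 at 240 h. In WM-2474 at 96 h the libraries of Pparg and Fabp4 overlapped.

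Time in culture was the comparison in which these genes moved. From 96 h to 240 h in DMSO all 8 genes that could be tested fell, from Plin2 by 0.22 to Lepr by 3.05 on the log2 scale. In WM-2474 6 of the 8 fell, and Cebpb and Plin2 did not pass the test. The ninth gene, Cfd, was too low to test. In edgeR's quasi-likelihood test with Benjamini-Hochberg adjustment at 0.05, 17.3% of 13499 tested genes were called lower in DMSO and 14.8% in WM-2474, and 34.8% and 30.7% were called in either direction. The 8 genes passed a filter on low counts that their 96 h libraries could meet by themselves, so the counts are a description. For Fabp4 and Lepr the 240 h libraries could not meet it by themselves, so the p-values of their falls are a description too. The median log2 change was -0.87 over the 8 genes in DMSO and -0.89 in WM-2474, against -0.01 and 0.0 over all tested genes. In bulk RNA, fewer cells carrying a transcript and less of it per cell cannot be told apart. Without DMSO 240 h replicates 1 and 2 the count in DMSO was 5 of 8, with Pparg, Lpl and Plin2 no longer past the threshold. That fit has 1 library in the DMSO 240 h group, which is assumed to vary like the others. Scaling by library totals alone moved the median of all genes by -0.12 in DMSO and -0.13 in WM-2474 on the log2 scale. It also turned the share of higher genes among all calls from 50.4% to 21.4% in DMSO and from 51.8% to 20.0% in WM-2474.

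**Figure D1:**
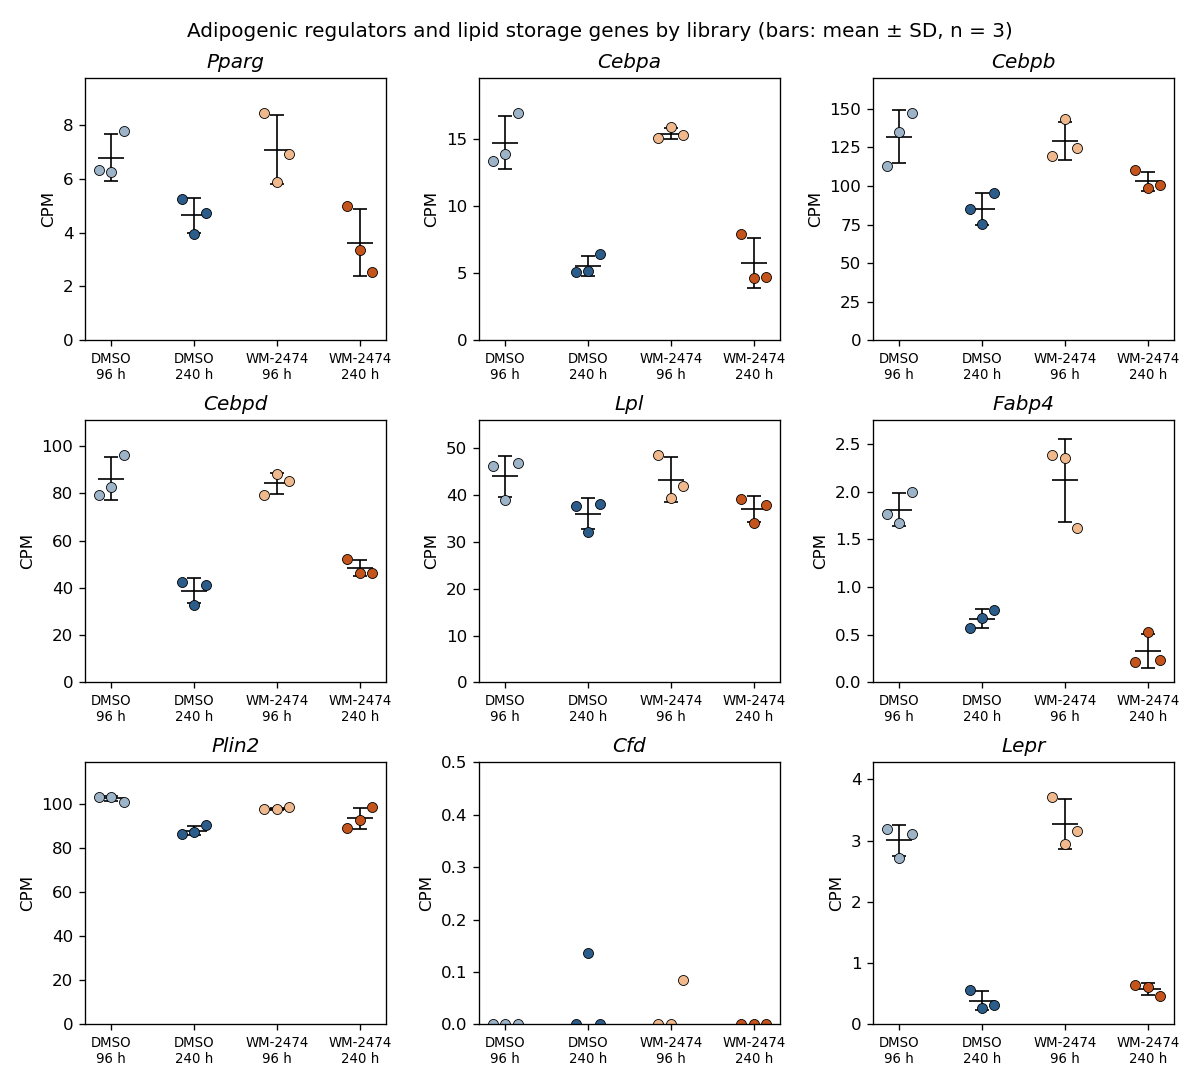
Expression of the 9 genes in CPM (vertical axes, linear, from 0) in each of the 12 libraries, by group; points are libraries and bars the mean ± SD of 3, omitted for Cfd. Lepr falls from 2.72 CPM or more in every 96 h library to 0.651 CPM or less in every 240 h library, whereas Plin2 stays between 86.5 and 103.4 CPM.

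Cebpa (chr7:35119293-35121928) encodes C/EBPα, a factor of the terminal adipocyte programme. It had 13.4, 13.9 and 17.0 CPM in the DMSO libraries at 96 h and 5.1, 5.16 and 6.42 CPM at 240 h. With WM-2474 it had 15.1, 15.9 and 15.3 CPM at 96 h and 7.92, 4.65 and 4.74 CPM at 240 h. Every 240 h library lay below every 96 h library under both treatments. The log2 change was -1.34 ± 0.16 (SE, adjusted p = 1.47e-07) in DMSO and -1.44 ± 0.16 (adjusted p = 7.98e-08) in WM-2474, and both held in all 22 alternative settings.

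Pparg (chr6:115360879-115490404) encodes PPARγ, the nuclear receptor that is required for fat cell formation. Its DMSO libraries had 6.32, 6.24 and 7.77 CPM at 96 h and 5.24, 3.94 and 4.73 CPM at 240 h. The WM-2474 libraries had 8.45, 5.88 and 6.91 CPM at 96 h and 4.99, 3.35 and 2.54 CPM at 240 h. The groups did not overlap between times, and the gap was narrow under both treatments. Pparg fell by 0.54 ± 0.18 in DMSO (adjusted p = 0.0245) and by 0.98 ± 0.20 in WM-2474 (adjusted p = 0.000388). The fall in DMSO missed the threshold without replicate 3 of DMSO at 96 h (adjusted p = 0.119), without replicate 2 (0.0807), replicate 3 (0.0873) or both replicates 1 and 2 (0.127) of DMSO at 240 h, and in DESeq2 (0.0539). Counts per gene do not separate transcripts from the upstream and downstream starts, so the PPARγ1 and PPARγ2 forms were not told apart.

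Cebpd (chr16:15887286-15889545), for the early factor C/EBPδ, was the larger mover of the early pair. In DMSO it had 79.4, 82.6 and 96.4 CPM at 96 h and 42.6, 32.6 and 41.4 CPM at 240 h. In WM-2474 the values were 79.4, 88.0 and 85.2 CPM at 96 h and 52.2, 46.2 and 46.5 CPM at 240 h. No 240 h library reached the lowest 96 h library. Cebpd fell by 1.13 ± 0.09 in DMSO (adjusted p = 3.85e-09) and by 0.80 ± 0.09 in WM-2474 (adjusted p = 4.22e-07).

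Cebpb (chr2:167688915-167690432), for the early factor C/EBPβ, was the highest of the 9 per kilobase in each group. It stood at 113.2, 135.1 and 147.5 CPM in DMSO at 96 h and at 84.8, 75.1 and 95.5 CPM at 240 h. The WM-2474 libraries had 119.6, 143.3 and 124.3 CPM at 96 h and 110.2, 98.5 and 100.3 CPM at 240 h. Times did not overlap within a treatment. Cebpb fell by 0.61 ± 0.11 in DMSO (adjusted p = 0.00188), and the WM-2474 value of -0.33 ± 0.11 missed the threshold with an adjusted p of 0.0523. That value passed it in 11 of 22 alternatives, with adjusted p from 0.000992 to 0.163. It passed in DESeq2 (0.00336), limma-voom (0.0345), library totals (0.00747), the fit of only the libraries compared (0.000992) and a fit with the replicate number as a block. It also passed without replicate 1 (0.0123) or 3 (0.029) of DMSO at 96 h, without replicate 2 (0.0288), 3 (0.0255) or both 1 and 2 of DMSO at 240 h, and without replicate 1 of WM-2474 at 96 h (0.0494).

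Both early factors overlap a protein-coding gene on the opposite strand, and Pparg and Cebpa an antisense gene (Gm44079 and Gm45091). Since the strand setting of the counting was not given in the sources used here, reads from the overlap cannot be told apart. Tmem189, which overlaps Cebpb, had log2 changes of 0.12 in DMSO (adjusted p = 0.139) and 0.15 in WM-2474 (adjusted p = 0.0542), neither past the threshold. Spidr, which overlaps Cebpd, had 24.4 to 32.3 CPM and fell by 0.31 in DMSO and by 0.23 in WM-2474, less than Cebpd did. These partners were named because of their position.

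Fabp4 (chr3:10204342-10208616, - strand) encodes a cytosolic fatty acid carrier that is abundant in fat cells and also made by macrophages and capillary endothelium. Its counts were low: 30, 19 and 27 in DMSO at 96 h and 4, 5 and 19 at 240 h, or 1.77, 1.67 and 2.0 CPM and then 0.566, 0.679 and 0.762 CPM. With WM-2474 there were 36, 28 and 19 counts at 96 h and 2, 7 and 2 at 240 h, or 2.39, 2.35 and 1.62 CPM and then 0.217, 0.533 and 0.231 CPM. Every 240 h library lay below the 96 h libraries, several of them near the level of 3 counts. Fabp4 fell by 1.35 ± 0.34 in DMSO (adjusted p = 0.00177) and by 2.57 ± 0.46 in WM-2474 (adjusted p = 8.99e-06), with 95% intervals of -2.04 to -0.66 and -3.51 to -1.62. Because Fabp4 passed the filter on low counts through its 96 h libraries only, these p-values are a description. Without replicate 2 of WM-2474 at 240 h, the library with 7 counts, the Fabp4 change in WM-2474 was -3.2, and over the other alternatives it reached -2.35. Markers of other cell types that make Fabp4 were read beside it. Summed over 10 macrophage markers the level was 10.3 to 12.9 CPM at 96 h and 6.59 to 10.2 CPM at 240 h. Of the 4 that could be tested, Lyz2 and Cd14 fell under both treatments and Csf1r and Cd68 passed in neither. Summed over 8 endothelial markers it was 5.71 to 8.88 CPM at 96 h and 2.67 to 5.38 CPM at 240 h. Of 4 tested endothelial markers 1 was called lower in DMSO and 3 in WM-2474, beside 17.3% and 14.8% of all tested genes. Cldn5 was at 0 in all 12 libraries. For Lyz2, and for Esam, an endothelial marker called in WM-2474, the 240 h libraries could not meet the filter by themselves. Their calls are a description too. The part of all these markers in the Fabp4 result was not tested.

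Lpl (chr8:68880555-68906932) encodes lipoprotein lipase, which frees fatty acids from circulating triglyceride. It showed 46.3, 39.0 and 46.9 CPM in DMSO at 96 h and 37.8, 32.2 and 38.1 CPM at 240 h. The WM-2474 libraries held 48.7, 39.4 and 41.9 CPM at 96 h and 39.3, 34.0 and 37.9 CPM at 240 h. The highest 240 h library and the lowest 96 h library were within 1 CPM of each other under both treatments. Lpl fell by 0.28 ± 0.09 in DMSO (adjusted p = 0.0165) and by 0.24 ± 0.09 in WM-2474 (adjusted p = 0.0464). The first call was lost in 4 of 22 alternatives: without replicate 1 (adjusted p = 0.0608) or 3 (0.0723) of DMSO at 96 h, and without replicate 2 (0.0826) or both 1 and 2 (0.207) of DMSO at 240 h. The WM-2474 call was lost in 9 of 22, with an adjusted p of up to 0.261: in DESeq2, in limma-voom, without replicate 1 (0.059), 3 (0.0517) or both 1 and 2 (0.0527) of DMSO at 240 h, without replicate 1 (0.261) or 3 (0.0575) of WM-2474 at 96 h, and without replicate 2 (0.237) or 3 (0.08) of WM-2474 at 240 h.

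Plin2 (chr4:86626910-86670217, - strand) encodes the lipid droplet coat protein perilipin 2, which is made in most cell types that hold droplets. DMSO libraries had 103.2, 103.4 and 101.1 CPM at 96 h and 86.5, 87.1 and 90.3 CPM at 240 h. WM-2474 libraries had 97.7, 97.6 and 98.5 CPM at 96 h and 89.2, 92.6 and 98.6 CPM at 240 h, where the third replicate reached the 96 h level. Plin2 fell by 0.22 ± 0.05 in DMSO (adjusted p = 0.00147), and the WM-2474 difference of -0.07 ± 0.05 did not pass (adjusted p = 0.338). Scaled by library totals, the Plin2 difference in WM-2474 was -0.20 and passed (adjusted p = 0.00207). Without DMSO 240 h replicates 1 and 2 the fall in DMSO missed the threshold (adjusted p = 0.0786).

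Lepr (chr4:101717137-101815352) encodes the leptin receptor, a cytokine receptor also used to mark stromal cells that can form fat. It had 54, 31 and 42 counts in DMSO at 96 h and 4, 2 and 8 at 240 h, or 3.19, 2.72 and 3.11 CPM and then 0.566, 0.272 and 0.321 CPM. In WM-2474 it had 56, 35 and 37 counts at 96 h and 6, 8 and 4 at 240 h, or 3.72, 2.94 and 3.16 CPM and then 0.651, 0.609 and 0.463 CPM. Every 240 h library lay below every 96 h library. Lepr was 8.26-fold lower at 240 h in DMSO (log2 change -3.05 ± 0.39, adjusted p = 3.02e-08) and 5.6-fold lower in WM-2474 (-2.49 ± 0.35, adjusted p = 3.3e-07). Because Lepr passed the filter on low counts through its 96 h libraries only, these p-values are a description. The count of 2 in DMSO 240 h replicate 2 is under 3 counts, so the size of the fall is loosely set, with 95% intervals of -3.84 to -2.25 and -3.2 to -1.77. Lep, the gene of its ligand leptin, was at 0 in all 12 libraries.

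Cfd (chr10:79890853-79892655) encodes adipsin, the complement factor D protease that mature fat cells secrete. It was listed at 0 in 10 of 12 libraries and at 1 count in DMSO 240 h replicate 2 (0.136 CPM) and in WM-2474 96 h replicate 3 (0.0854 CPM). A difference between groups was not detectable at this depth.

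**Figure D2:**
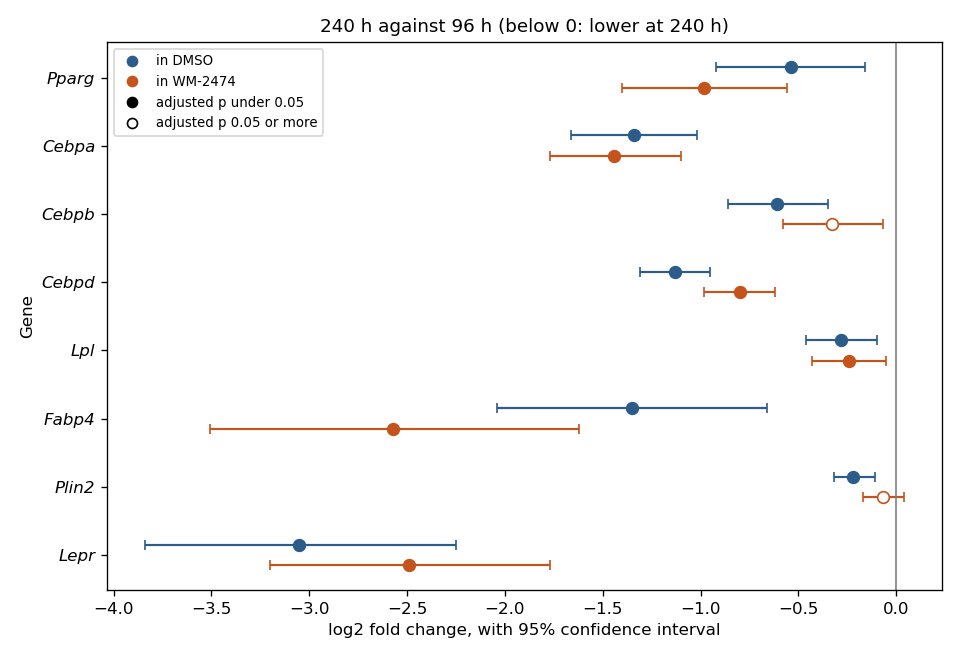
Log2 fold change of 240 h against 96 h (horizontal axis) for the 8 tested genes (vertical axis), in DMSO and in WM-2474; lines are 95% confidence intervals and filled points passed an adjusted p of 0.05. All points lie below 0, from -3.05 for Lepr in DMSO to -0.07 for Plin2 in WM-2474.

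Libraries of the groups did not overlap, with 240 h below 96 h, for 8 of the 8 tested genes in DMSO and 7 of 8 in WM-2474, the exception being Plin2. Among all tested genes such a gap was present in 22.8% and 21.2%. The estimated falls of the C/EBP genes differed in size. In DMSO the 95% interval of Cebpb was -0.86 to -0.35. Those of Cebpa and Cebpd, -1.66 to -1.02 and -1.31 to -0.95, overlapped each other. The differences between genes were not tested.

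Whether other genes of the programme moved was read from 7 lists of 101 genes, of which 85 were tested. In DMSO 18 of the 85 rose and 31 fell, and in WM-2474 15 rose and 28 fell. Of all 13499 tested genes 17.3% were called lower and 34.8% in either direction in DMSO, and 14.8% and 30.7% in WM-2474. These shares belong to the main fit and stand beside its counts for each list below. The counts over all genes in the fit without DMSO 240 h replicates 1 and 2 are given at the end. The lists were chosen with earlier results of these data known, so all these counts are a description. The lists' median log2 change was -0.12 in DMSO and -0.09 in WM-2474, beside -0.01 and 0.0 over all tested genes. Scaled by library totals, 10 rose and 46 fell in DMSO and 8 rose and 43 fell in WM-2474. Over all 13499 tested genes that scaling gave 1190 higher and 4381 lower in DMSO, and 1097 and 4391 in WM-2474. List counts under library totals below stand beside these. Without DMSO 240 h replicates 1 and 2, 15 of 87 tested genes rose and 24 fell in DMSO.

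**Figure D3:**
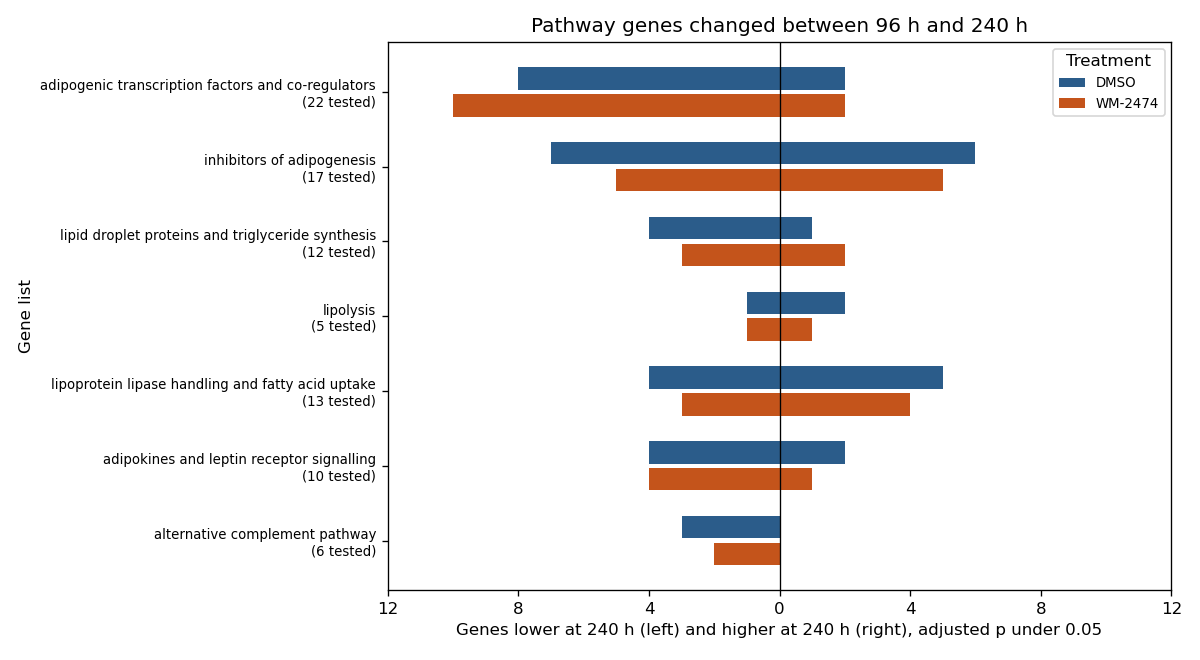
Number of genes of each of the 7 pathway lists (vertical axis) that were lower (left) or higher (right) at 240 h than at 96 h with an adjusted p under 0.05, in DMSO and in WM-2474. The list of adipogenic transcription factors had 8 lower and 2 higher genes in DMSO, and the list of inhibitors 7 lower and 6 higher.

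Of 22 tested adipogenic transcription factors and co-regulators, 2 rose and 8 fell in DMSO, and 2 rose and 10 fell in WM-2474. The 8 and 2 were called in the same direction under both treatments. Library totals gave 2 higher and 11 lower in DMSO and 0 and 12 in WM-2474, and without DMSO 240 h replicates 1 and 2 the DMSO count was 2 and 7 of 23 tested. Klf5, a Krüppel-like factor that acts with C/EBPβ and C/EBPδ on Pparg, fell from 9.94 ± 1.12 to 3.69 ± 0.452 CPM in DMSO (SD, n = 3, log2 change -1.49, adjusted p = 2.68e-08), with -1.33 in WM-2474. Ebf2, an early B-cell factor that marks committed fat precursors, fell, with log2 changes of -1.36 in DMSO (adjusted p = 5.37e-08) and -1.35 in WM-2474. Cebpg, a C/EBP partner that lacks an activation domain, rose by 0.34 and 0.19. The WM-2474 call of Cebpg was lost under library totals (log2 0.06), in DESeq2 (adjusted p = 0.0583) and in a fit with the replicate number as a block. It was also lost without replicate 1 of WM-2474 at 96 h (log2 0.11, 0.225), and without replicate 2 (0.0772) or 3 (0.0688) of WM-2474 at 240 h. Egr2 (Krox20), an early inducer of Cebpb in differentiating preadipocytes, rose from 2.74 ± 0.439 to 5.56 ± 0.614 CPM in DMSO (log2 change 0.98, adjusted p = 0.000133). In WM-2474 Egr2 rose by 0.47 (adjusted p = 0.0435), a call that was lost in 12 of 22 alternatives, with adjusted p of up to 0.189. Among these were library totals, no filter, DESeq2, the fit of only the libraries compared and the fit without replicates 1 and 2 of DMSO at 240 h. A fit with the replicate number as a block lost the call too. The others left out replicate 2 of DMSO at 96 h, 3 of DMSO at 240 h, 1 or 3 of WM-2474 at 96 h, and 2 or 3 of WM-2474 at 240 h.

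Among 17 tested inhibitors of adipogenesis, 6 rose and 7 fell in DMSO and 5 rose and 5 fell in WM-2474. Wwtr1, which encodes the PPARγ co-repressor TAZ, rose by 0.33 in DMSO (adjusted p = 7.02e-06) and by 0.47 in WM-2474. Trib2, a pseudokinase that lowers C/EBPα protein, rose by 0.40 and 0.30. Wnt10b, a Wnt ligand that holds precursors undifferentiated, fell from 12.8 ± 1.73 to 5.64 ± 0.617 CPM in DMSO (log2 change -1.22, adjusted p = 5.05e-07), with -1.35 in WM-2474. Zfp521, a zinc finger repressor of Ebf factors, fell, with log2 changes of -0.71 and -0.52. The list thus held calls in both directions, and scaled by library totals it had 3 higher and 9 lower in DMSO and 5 and 8 in WM-2474. Without DMSO 240 h replicates 1 and 2 it had 5 higher and 6 lower in DMSO.

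Of 18 genes of droplet coating and triglyceride synthesis 12 were tested, and 2 were at 0 in all libraries. In DMSO 1 rose and 4 fell, and in WM-2474 2 rose and 3 fell. Scaled by library totals 1 rose and 8 fell in DMSO and 1 and 7 in WM-2474, and without DMSO 240 h replicates 1 and 2 the DMSO count was 1 and 2. Plin4, a perilipin of fat and muscle cells, fell from 12.5 ± 2.11 to 4.33 ± 1.05 CPM in DMSO (log2 change -1.57, adjusted p = 7.88e-09), with -1.83 in WM-2474. Lpin1, the phosphatidate phosphatase that makes diacylglycerol, fell from 78.3 ± 1.65 to 40.0 ± 3.54 CPM (log2 change -0.96, adjusted p = 3.44e-12), with -0.95 in WM-2474. Cav1, the caveolar coat gene, rose from 488.6 ± 21.1 to 896.1 ± 28.4 CPM (log2 change 0.87, adjusted p = 1.03e-13), with 0.81 in WM-2474. Of the lipolysis genes 5 of 7 were tested, with 2 higher and 1 lower in DMSO and 1 and 1 in WM-2474, and under library totals 2 and 3 and then 1 and 2. Mgll, the monoglyceride lipase, rose by 1.28 (adjusted p = 1.59e-05) and 1.54. Lipe, the hormone-sensitive lipase, fell, with log2 changes of -0.81 (adjusted p = 0.00382) and -0.76 (adjusted p = 0.00927). The Lipe call in DMSO was lost without replicate 3 of the 96 h group (log2 -0.55), and that in WM-2474 without replicate 3 of the 240 h group (log2 -0.57).

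Lipase handling and fatty acid uptake had 5 higher and 4 lower of 13 tested genes in DMSO, and 4 and 3 in WM-2474. Library totals turned this balance, to 2 higher and 6 lower in DMSO and 1 and 6 in WM-2474, and without DMSO 240 h replicates 1 and 2 it was 4 and 2 in DMSO. Vldlr, the very low density lipoprotein receptor, rose by 0.30 (adjusted p = 9.02e-05) and 0.29. Sel1l, an endoplasmic reticulum protein needed for Lpl maturation, rose by 0.22 and 0.24, and both calls were lost under library totals. The acyl-CoA synthetase genes Acsl3 and Acsl4 fell: Acsl3 had log2 changes of -1.0 in DMSO (adjusted p = 3.01e-11) and -1.02 in WM-2474, and Acsl4 of -0.50 and -0.59. Cd36, the fatty acid translocase of fat cells, was at 0 in 6 libraries and at most at 0.177 CPM.

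Among adipokines and leptin receptor signalling genes 10 of 15 were tested, with 2 higher and 4 lower in DMSO and 1 and 4 in WM-2474. Under library totals 0 were higher and 6 lower in each, and without DMSO 240 h replicates 1 and 2 the DMSO count was 1 and 4 of 11 tested. Nampt, the NAD salvage enzyme also known as visfatin, fell, with log2 changes of -0.77 (adjusted p = 1.81e-10) and -0.63. Apln, for the peptide apelin, fell, with log2 changes of -0.89 (adjusted p = 4.45e-07) and -0.84. The adiponectin receptor gene Adipor1 rose by 0.15 (adjusted p = 0.0192) and 0.16 (adjusted p = 0.0137). Both Adipor1 calls were lost under library totals, as was the DMSO call without replicate 3 at 96 h or replicate 2, 3 or both 1 and 2 at 240 h. The WM-2474 call was also lost without replicate 3 at 96 h or at 240 h, and in a fit with the replicate number as a block. Of 6 alternative complement genes, the pathway in which Cfd cuts factor B, 0 rose, with 3 lower in DMSO and 2 in WM-2474, and 2 in DMSO without DMSO 240 h replicates 1 and 2. Cd55, a membrane inhibitor, fell, with log2 changes of -0.46 (adjusted p = 0.00654) and -0.43.

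Adipocyte progenitor markers were read beside these falls. Their summed level was 1235.3 to 1335.4 CPM at 96 h and 1255.2 to 1421.2 CPM at 240 h, and 1 of 8 rose and 4 fell under each treatment. The 4 that fell were Pdgfra, the receptor of fibroblast-like precursors (log2 change -0.52 in DMSO and -0.57 in WM-2474), Cd34 (-1.19 and -1.11), Dpp4 (-1.8 and -1.91) and Zfp423 (-0.82 and -0.91). Dpp4 and Zfp423 were low, at means of 4.88 and 3.79 CPM in DMSO at 96 h. The 1 that rose was Pdgfrb (0.35 and 0.39), and Ly6a and Pi16 passed under neither treatment. Dlk1, the preadipocyte surface protein Pref-1, did not pass, at 236.8 ± 36.6 and 223.3 ± 29.5 CPM in DMSO at 96 h and 240 h. Of 10 fibroblast markers 7 rose and 1 fell under each treatment. Of all 13499 tested genes 2364 were called higher and 2330 lower in DMSO, and 2147 and 1999 in WM-2474. Pdgfra and Pdgfrb are in both lists, so the fibroblast marker that fell is the same Pdgfra. The part of these markers in the falls of the 9 genes was not tested.

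WM-2474 against DMSO gave no call among the 8 tested genes at either time in edgeR's quasi-likelihood test over all libraries, with 0 of the 8 at an unadjusted p under 0.05 at 96 h and 1 at 240 h. At 96 h 0 genes of 13499 passed (0.0%), with 283 at an unadjusted p under 0.05, and DESeq2 also gave 0. With the replicate number as a block, on the 96 h libraries alone, 3 genes passed, none of them among the 9, and 846 of 13377 had an unadjusted p under 0.05. At 240 h 4 genes passed (0.0296%), none of them among the 9, with 1099 of 13499 at an unadjusted p under 0.05. DESeq2 called none of the 8 at 96 h, and at 240 h it gave an adjusted p for Cebpb (0.268) and Plin2 (0.7) only. With the replicate number as a block on the 240 h libraries alone, Cebpb (adjusted p = 0.0128) and Cebpd (adjusted p = 0.0198) were called higher in WM-2474. Deviations from the group mean correlated between same-numbered libraries at 0.0397 to 0.114 there and at 0.191 to 0.301 at 96 h. At each time 6 of 6 samples correlated best with their own number. The labels do not state such a pairing. The 95% intervals at 96 h are from the fit without a replicate block, so spread between replicate numbers is part of them. They bound the log2 difference to between -0.20 and 0.33 for Cebpa, -0.27 and 0.21 for Cebpb, -0.20 and 0.13 for Cebpd and -0.27 and 0.42 for Pparg. For Lpl the interval was -0.20 to 0.15 and for Plin2 -0.17 to 0.03, and for the low genes Fabp4 and Lepr it was wider, -0.29 to 0.76 and -0.30 to 0.54. Plin2 was the 1 gene whose WM-2474 libraries at 96 h all lay below the DMSO libraries, by a log2 difference of -0.07 that did not pass (adjusted p = 1.0).

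At 240 h Cebpd stood at 48.3 ± 3.37 CPM in WM-2474 and 38.9 ± 5.46 CPM in DMSO, with libraries that did not overlap. Its log2 difference of 0.29 ± 0.09 had an unadjusted p of 0.0052 and did not pass after adjustment (0.464). Cebpb was higher in all WM-2474 libraries as well, at 103.0 ± 6.33 against 85.1 ± 10.2 CPM, with a log2 difference of 0.25 ± 0.12 that did not pass (adjusted p = 0.623). Fabp4 was lower in all WM-2474 libraries, by 0.98 ± 0.51 on the log2 scale (adjusted p = 0.613), a difference between 2 to 7 and 4 to 19 counts. The share of all tested genes with such a gap between treatments was not counted. These gaps, and that of Plin2 at 96 h, are therefore a description. The intervals at 240 h were -0.42 to 0.34 for Cebpa, -0.81 to 0.08 for Pparg, -0.18 to 0.21 for Lpl, -0.02 to 0.19 for Plin2 and -0.30 to 1.67 for Lepr. Of the 85 tested pathway genes 0 passed at either time in edgeR's test, with 1 at an unadjusted p under 0.05 at 96 h and 9 at 240 h. Over all 13499 tested genes the unadjusted p was under 0.05 for 283 at 96 h and 1099 at 240 h. DESeq2 called 0 of the 85 at 96 h and 0 at 240 h, where 57 had no adjusted p. The smallest p was that of Egr2 at 96 h (log2 difference 0.52, unadjusted p = 0.0114, adjusted p = 1.0) and of Acsl5, an acyl-CoA synthetase, at 240 h (-0.19, unadjusted p = 0.00719, adjusted p = 0.48).

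**Figure D4:**
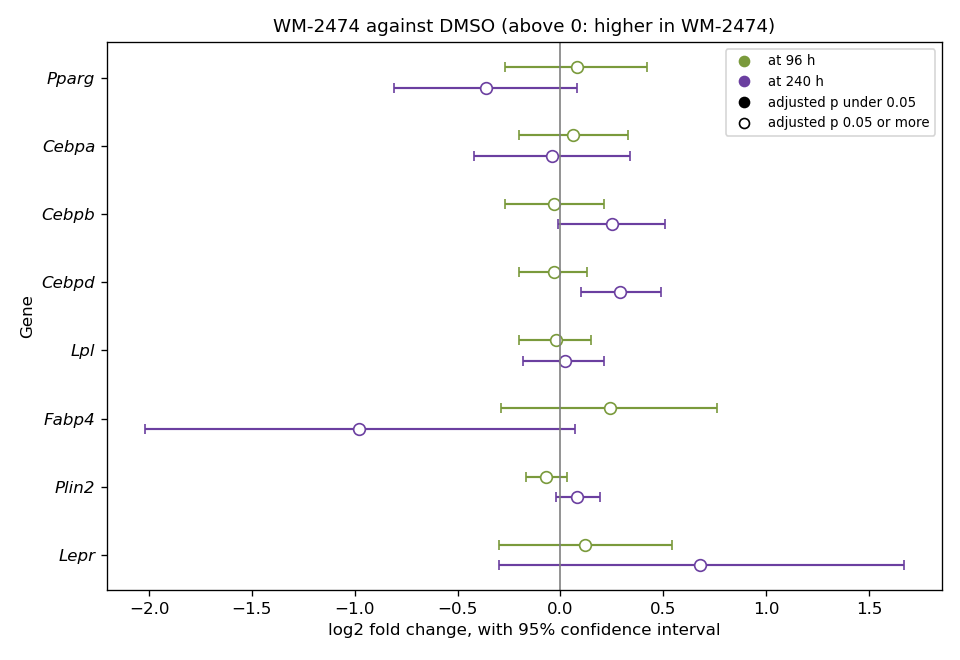
Log2 fold change of WM-2474 against DMSO (horizontal axis) at 96 h and at 240 h for the 8 tested genes (vertical axis), with 95% confidence intervals. No point is filled, since none passed an adjusted p of 0.05, and the interval of Cebpd at 240 h, 0.1 to 0.49, is the 1 that leaves out 0.

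The change over time was then compared between treatments. None of the 8 genes passed the test of that difference, and 0 of 13499 genes did (0.0%), with 625 at an unadjusted p under 0.05. DESeq2 also called 0, with 297 at an unadjusted p under 0.05. In edgeR's quasi-likelihood test the unadjusted p was under 0.05 for 3 of the 8. The log2 fall in WM-2474 was smaller than in DMSO by 0.33 ± 0.12 for Cebpd and by 0.15 ± 0.07 for Plin2, and larger for Fabp4 (-1.21 ± 0.57). Each had an adjusted p of 0.977. Cebpb and Plin2, which passed in DMSO and not in WM-2474, were therefore not shown to differ between the treatments, with differences of 0.28 ± 0.16 and 0.15 ± 0.07.

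The genes with the likest pattern were taken by Pearson's r of log2 CPM over the 12 libraries, which time splits into separate sets of 6, so that r mostly reflects time and is given as a description. For Cebpa they were Acadm (0.984) and Prxl2a (0.983), and for Pparg Zmym3 (0.943) and Stx3 (0.939). Cebpb was most like Zfp503 (0.985) and Lonrf1 (0.981), and Cebpd most like Sfrp2 (0.993) and Slc25a1 (0.988). Lpl followed Igf2bp2 (0.975) and Lrrn4 (0.948), and Plin2 followed Zfp821 (0.938) and Tada1 (0.935). Fabp4 was closest to Rrm2 (0.974) and Kif2c (0.968), and Lepr had Tmem98 (0.986) in its pair. None of the 8 had another of the 9 among its likest pair.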

How the data were processed

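Counts per gene were measured in 12 libraries. The authors deposited whole-number counts and each gene's exon length, made with featureCounts on mm10 per the submitters' processing notes, from a stranded mRNA kit per the labels' protocols. Not given in the sources used here were the aligner, versions, annotation and strand setting. Entries without an identifier (874 of 27179) held 0.547 to 0.648% of counts and were left out. Of 26305 identifiers, 96.1% were named with RefSeq on GRCm38.p6, which gives the positions printed.

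Genes kept by filterByExpr (13499) were normalized by TMM, with factors between 1.04 and 1.05 in the 96 h libraries and between 0.943 and 0.967 in the 240 h libraries, in edgeR 4.0.16 under R 4.3.3. A robust quasi-likelihood fit over all 12 libraries with 1 coefficient per group gave two-sided tests, adjusted by Benjamini-Hochberg within each comparison at 0.05. CPM and RPKM use those factors, and log2 CPM a prior count of 2. The fit was tested on simulated data. Library totals set the precision: 3 counts express counting error only, and 95% intervals the fitted spread.

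Named were the 9 genes, and of each pathway list the 2 rising and 2 falling genes with the smallest p in DMSO among those past the threshold under both treatments. For each treatment comparison the listed gene with the smallest p was added, and for each of the 9 the 2 genes with at least 1 CPM and the highest r. Tmem189, Spidr, Cd36, Lep and the cell type markers were named outside this rule, after values were seen. Of the genes the rule names, 2 are not reported here. The genes and lists were chosen with earlier results of these data known. Same-numbered deviations of the 96 h libraries correlated between treatments at 0.191 to 0.301. Such a pairing is read from the data, is not stated by the labels and is not used in the main fit. Alternatives were RLE factors, library totals, other filters, DESeq2 1.42.0, limma-voom (limma 3.58.1), the replicate block, subsets and each library left out. Other scripts ran in Python 3.11.15 with pandas 2.3.3 and matplotlib 3.10.9.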

Additional observations from a re-analysis of the deposited data

How the results depend on the processing

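Over 22 alternatives, 821 of 854 values of the 8 tested genes kept their direction and side of the threshold, 19 lost a call, 14 gained one and 0 called values reversed, while 24 uncalled values changed sign. Of the 1055 values of the 23 named pathway genes, 1015 kept theirs, 40 lost a call and 0 reversed. Without DMSO 240 h replicates 1 and 2, 5 members were called lower in DMSO in place of 8, and 1489 genes were higher and 1374 lower in place of 2364 and 2330. Library totals gave 1190 higher and 4381 lower in DMSO, and 1097 and 4391 in WM-2474 in place of 2147 and 1999. For WM-2474 against DMSO at 240 h, where 4 genes were called higher and 0 lower, DESeq2 called 11 higher with 10207 adjusted p not given, limma-voom 7, no filter 39 higher and 8 lower, the fit of only the libraries compared 15, and leaving out 1 library 0 to 11 higher and 0 to 12 lower. Without DMSO 240 h replicates 1 and 2 it was 0. No filter called 2 genes in the difference of the time effects.

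At 240 h the replicate block on the libraries compared called 2 members higher, Cebpb (0.26, adjusted p = 0.0128) and Cebpd (0.30, adjusted p = 0.0198), in place of 0, and 79 genes higher and 12 lower. The block over all libraries called 7 genes. Same-numbered deviations correlated at 0.0397 to 0.114 there and every sample correlated best with its own number, a hint from the data, not the design. In the time comparisons they correlated at 0.0557 to 0.132 in DMSO (6 of 6 best with their own number) and -0.00783 to 0.0804 in WM-2474 (4 of 6). At 96 h the block called 3 genes higher. Among the 8 genes the block changed 1 other call, the fall of Cebpb over time in WM-2474, which passed (adjusted p = 0.00207). It lost the WM-2474 calls of Egr2 (0.0743), Cebpg (0.0641) and Adipor1 (0.0563). Depth limits Fabp4, Lepr and Cfd, which had 0 to 19 counts in each 240 h library.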
